A study of Homo sapiens with 4 samples.

Results

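Synaptic vesicles are filled, docked, primed, fused and recovered by a set of dedicated proteins. The RNA of 37 genes for these proteins, of 60671 genes counted, was read in SK-N-BE(2), a MYCN-amplified human neuroblastoma cell line in long use. The genes were taken by symbol from a list of vesicle, SNARE, active zone and endocytosis genes, without the synaptotagmins, and each of the 37 symbols had 1 row in the count table. RNA was sequenced from cells with a scrambled control hairpin (shNC) and from cells with a hairpin against METTL14 (shMETTL14), with 2 libraries in each group. METTL14 is the partner of METTL3 in the enzyme that writes N6-methyladenosine (m6A) on RNA. Both groups were the same line, and by the study's methods hairpins were delivered with a pLKO.1 lentivirus and the cells were selected with puromycin. The labels do not say which of the published hairpins the cells carried or whether the libraries came from separate cultures, so p-values measure the spread between these libraries, which may be technical.

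At a nerve terminal, a vesicle fuses when the vesicle SNARE synaptobrevin (VAMP) zips together with syntaxin 1 and SNAP-25 on the plasma membrane. The active zone scaffold holds release sites, RAB3 proteins and their effectors bring vesicles to them, UNC13 and CAPS proteins prime the vesicles, and complexins hold the primed SNARE complex. NSF with its SNAP adaptors then takes the SNAREs apart, and dynamin, amphiphysin, synaptojanin and endophilin pull the membrane back in. Neuroblastoma arises from the sympathetic lineage, whose cells use the same proteins to release catecholamine from granules and vesicles.

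METTL14 was read first as a check of the labels. It had 753 and 754 counts in the shNC libraries and 303 and 321 in the shMETTL14 libraries, so that 41.7% of the control level remained (log2 fold change -1.26, SE 0.0832, adjusted p 3.64e-11). The sum of gene counts lay between 18925786 and 19886214 in each library. The mean chi-square per gene, near 1 under sampling noise alone, was 2.80 and 2.30 within the groups and between 34.1 and 35.2 across them. All 11 noradrenergic neuroblastoma markers checked passed the filter on low counts, and their summed level was between 5920 and 6063 normalised CPM (counts scaled to a common library size by TMM) in shNC and between 5913 and 5947 in shMETTL14. Of these markers 3 were higher and 8 lower in shMETTL14 cells. Markers of other cells were low: summed over each list, between 3.78 and 5.82 normalised CPM for 5 Schwann cell genes (SOX10 at 0), between 0.715 and 2.26 for 3 endothelial genes, and between 1.61 and 2.19 for 3 leukocyte genes. A list of 4 fibroblast genes was at 172 and 172 normalised CPM in shNC against 156 and 150 in shMETTL14, most of it PDGFRB and DCN. The part of these lists in the results below was not tested.

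Across the machinery, METTL14 knockdown went with changes in both directions and of moderate size. Of the 37 genes, 32 were expressed highly enough to test, and 18 of them were called at an edgeR adjusted p under 0.05, against 52.5% of all 16309 genes tested. A gene is called higher or lower below only where it passed that threshold. Among the 32, 11 were higher (27.2% of all tested genes were) and 7 were lower (25.3% of all were). These shares lie near the background, so the number of calls is not a result about the vesicle genes, and what follows is about which of them moved. The median log2 fold change of the 32 was 0.12, and that of all tested genes was -0.001; the median absolute value was 0.33 against 0.30. In 27 of the 32 the normalised CPM of the groups did not overlap, where 75.5% of all tested genes had such groups. In bulk RNA, fewer cells that express a gene and less RNA per cell cannot be told apart.

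No called vesicle gene reached 2-fold with edgeR, and none did with DESeq2, whether at an adjusted p or at an unadjusted p under 0.05. Over all genes, 8.79% were called at 2-fold, 2.8% higher and 5.99% lower. Without the size limit, edgeR had 22 vesicle genes at an unadjusted p under 0.05 and DESeq2 called 14. The gene with the highest log2 fold change among the called was CPLX1 at 0.94 and the one with the lowest was DOC2B at -0.95.

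**Figure D1:**
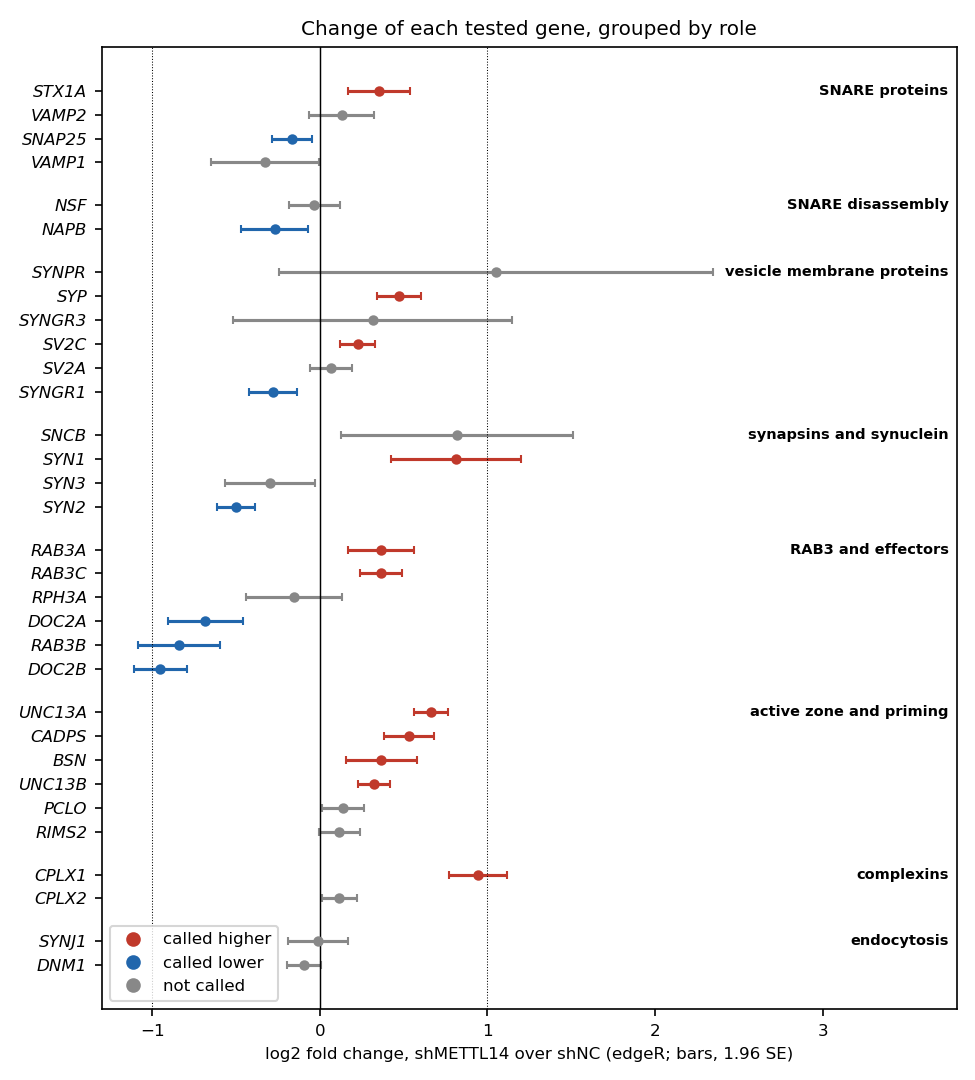
Log2 fold change of the 32 tested genes, shMETTL14 over shNC, grouped by role; bars span 1.96 standard errors on each side, colour gives the call, and dotted lines mark 2-fold. Called genes point both ways in 4 of the 8 roles, while the called genes for the active zone and priming, UNC13A, CADPS, BSN and UNC13B, all lie to the right of 0.

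To compare genes with each other, CPM was divided by the length of a gene's merged exons in kb. Merged exons can be much longer than the longest coding transcript, as for DOC2A (6426 against 2071 bases). Order and shares between genes therefore depend on the length used, here and below. On that scale the control cells expressed SNAP25 most, at 16.1, followed by SYN2 at 11.8, CPLX2 at 10.4 CPM per kb, with SV2A next. Over all tested genes with a known exon length the median was 4.14 CPM per kb, and 16 of the 32 vesicle genes lay above it. Of the 31 neighbouring pairs in this order, 16 overlapped between the shNC libraries, CPLX2 and SV2A among them, so their order is not resolved. After knockdown SNAP25 still led at 14.4 CPM per kb. CPLX1 moved from place 9, at 6.52, to place 2, at 12.5 CPM per kb, whereas SYN2 moved from place 2 to place 8 and DOC2B from place 10 to place 18. In the shMETTL14 libraries SYN2 overlapped UNC13A at place 7, and DOC2B overlapped NAPB at place 19. The exact end places of SYN2 and DOC2B are therefore not resolved.

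**Figure D2:**
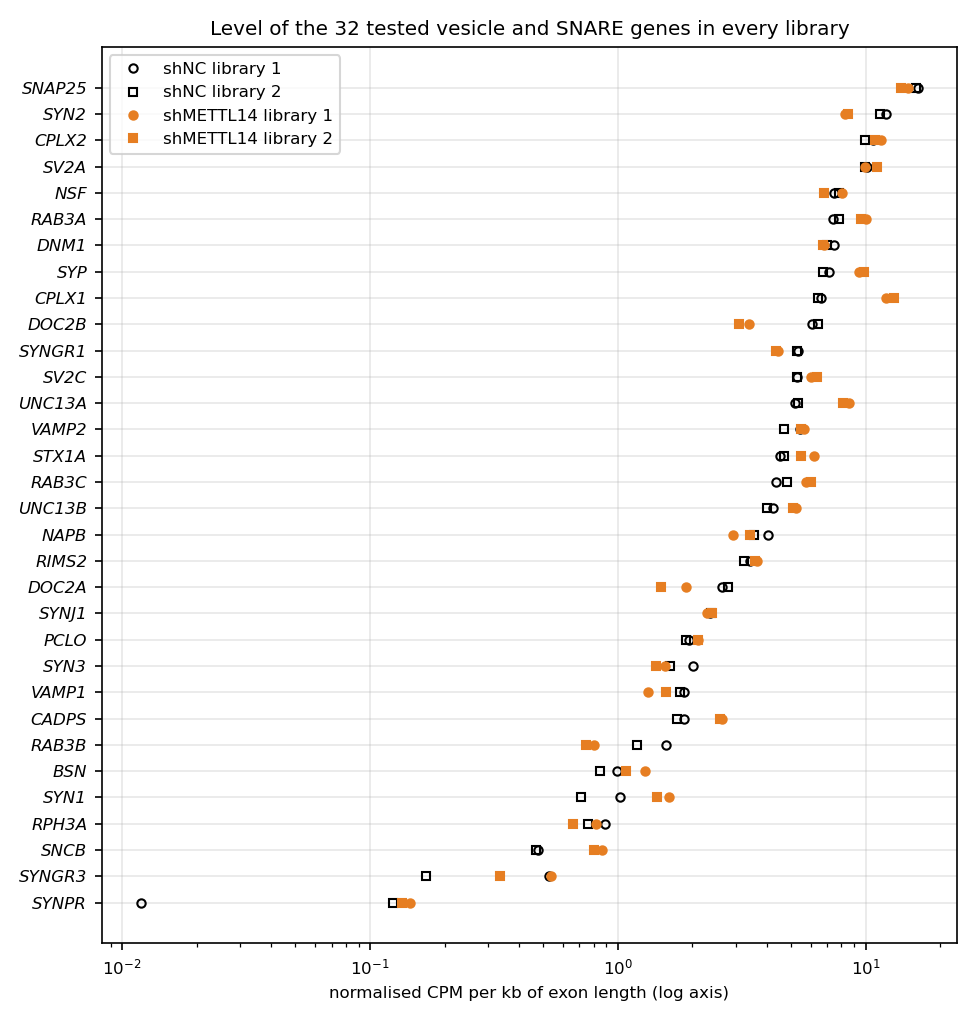
Level of each tested gene in the 4 libraries, as normalised CPM per kb of exon length on a log axis, ordered by the shNC mean. The 2 libraries of a group lie close together for most genes, and open shNC and filled shMETTL14 symbols are clearly apart for CPLX1, DOC2B, UNC13A, RAB3B and the weakly expressed SNCB, among others.

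The other 5 genes could not be tested. SV2B had 0 counts in every library, which allows up to 3 counts, or between 0.151 and 0.159 CPM. RIMS1 had 2 and 0 counts in shNC and 4 and 2 in shMETTL14. CADPS2 had 0 and 3 against 1 and 0. AMPH (amphiphysin) had 1 and 0 in both groups, and SH3GL2 (endophilin A1) had 1 and 6 against 2 and 0. All were at or near the limit of 3 counts, so these cells gave almost no RNA of SV2B, of the scaffold gene RIMS1, of the priming gene CADPS2 or of the neuronal forms of amphiphysin and endophilin, and no change could be read from them at this depth.

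The SNARE genes moved little and not together. STX1A, which encodes syntaxin 1A, had 331 and 331 counts in shNC and 449 and 390 in shMETTL14. Both knockdown libraries lay above the controls, and the rise was 1.28-fold (log2 fold change 0.35, SE 0.0945, adjusted p 0.00359). Without shMETTL14 library 1 the value was 0.26 with an adjusted p of 0.0626. STX1A shares 662 bases, 17.9% of its exon length, with BUD23 on the other strand. SNAP25, which encodes the other plasma membrane SNARE, went the opposite way, from 1091 and 1025 counts to 971 and 900. It was called lower (log2 fold change -0.17, SE 0.0608, adjusted p 0.0244), but not with DESeq2 (adjusted p 0.133), without shNC library 1 (-0.16, adjusted p 0.0819), without shMETTL14 library 2 (-0.12, adjusted p 0.261) or without the filter on low counts (adjusted p 0.0706).

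Neither synaptobrevin gene was called. VAMP1 had 132 and 122 counts in shNC and 93 and 108 in shMETTL14, with groups that did not overlap (log2 fold change -0.33, interval -0.65 to -0.01, adjusted p 0.0990), and it was called after upper quartile scaling (adjusted p 0.0479). VAMP2, the main vesicle SNARE of brain synapses, had 356 and 293 counts against 361 and 344 (log2 fold change 0.13, interval -0.07 to 0.33, adjusted p 0.288). VAMP2 was the more abundant of the pair, with 74.7% and 72.5% of their summed CPM per kb in shNC and 81.0% and 77.7% in shMETTL14. Intervals here and below span 1.96 standard errors on each side. That normal factor makes them narrower than the edgeR test itself would, so an interval can leave out 0 where the test does not pass. For VAMP1 the unadjusted p of the edgeR test was 0.0584. VAMP1 shares 9.47% of its exon length with TAPBPL, and VAMP2 shares 13.2% with an unnamed coding gene, ENSG00000263620.

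NSF, the ATPase that takes SNARE complexes apart, had 741 and 747 counts in shNC and 789 and 658 in shMETTL14, and the groups overlapped (log2 fold change -0.03, interval -0.19 to 0.12). NSF has a partial copy on the same chromosome, so its reads may have been split. NAPB encodes beta-SNAP, the neuronal adaptor of NSF, and fell from 421 and 357 to 298 and 343 counts (log2 fold change -0.27, SE 0.102, adjusted p 0.0312). That call was lost with DESeq2 (adjusted p 0.154), without the filter on low counts (adjusted p 0.0713), without shNC library 1 (-0.18, adjusted p 0.244) and without shMETTL14 library 1 (-0.16, adjusted p 0.307).

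Among proteins of the vesicle membrane, SYP and SV2C rose and SYNGR1 fell. SYP, which encodes synaptophysin, a widely used marker of synaptic and neuroendocrine vesicles, had 740 and 673 counts in shNC and 962 and 987 in shMETTL14. Its level went from 36.1 ± 1.40 to 50.2 ± 1.52 normalised CPM (SD, n = 2 each), a 1.39-fold rise with no overlap (log2 fold change 0.47, SE 0.0665, adjusted p 3.26e-06). SYNGR1, for synaptogyrin 1 of the same protein superfamily, had 739 and 702 counts against 601 and 580 (log2 fold change -0.28, SE 0.073, adjusted p 0.00295). The share of SYP in the summed CPM per kb of the pair rose from 57.2% and 56.1% to 68.1% and 69.4%. Both calls held under every alternative run.

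The SV2 genes encode transporter-like glycoproteins of the vesicle. SV2C rose from 1267 and 1222 to 1414 and 1479 counts (log2 fold change 0.23, SE 0.0531, adjusted p 0.0011). SV2A, the form found in nearly all neurons, had 974 and 919 counts against 939 and 1029, with overlapping groups (log2 fold change 0.07, interval -0.06 to 0.19). Per length SV2A was the higher of this pair, with 65.7% and 65.2% of their sum in shNC and 62.4% and 63.4% in shMETTL14. SYNGR3 and SYNPR were weakly expressed. SYNGR3 had 36 and 11 counts in shNC and 36 and 22 in shMETTL14 (log2 fold change 0.32, interval -0.52 to 1.15). Its sign turned with single libraries: it was 1.36 (adjusted p 0.0508) without shNC library 1, 0.62 without shMETTL14 library 2, -0.27 without shNC library 2 and -0.06 without shMETTL14 library 1. SYNPR, for synaptoporin, had 1 and 10 against 12 and 11, and its log2 fold change of 1.05 (interval -0.24 to 2.35, adjusted p 0.189) became 3.41 (adjusted p 0.024) without shNC library 2.

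The synapsins, which tether vesicles to each other and to actin, moved apart. SYN2 (ENSG00000157152, chromosome 3, 12004402 to 12191400 on the plus strand, GENCODE 29, GRCh38) fell from 1376 and 1245 counts in shNC to 917 and 926 in shMETTL14, or from 67.0 ± 2.84 to 47.5 ± 0.906 normalised CPM (SD, n = 2 each). It kept 70.8% of the control level (log2 fold change -0.50, SE 0.0582, adjusted p 2.57e-07). SYN1 rose from 78 and 52 to 121 and 106 counts, 1.76-fold (log2 fold change 0.81, SE 0.198, adjusted p 0.00153). Both SYN1 groups were low, and neither gene's groups overlapped. SYN3 had 219 and 170 counts against 165 and 149 and was not called (log2 fold change -0.30, interval -0.57 to -0.03, adjusted p 0.0721), although it was called under 3 alternatives, at -0.37 after upper quartile scaling, at -0.34 when only library size was used and at -0.44 without shNC library 2. In the summed CPM per kb of the 3 genes, SYN1 took 6.74% and 5.16% in shNC and 14.2% and 12.7% in shMETTL14, while SYN2 went from 80.0% and 83.0% to 72.3% and 74.7%. SYN2 shares 2.99% of its exon length with TIMP4, which lies inside it on the other strand. SYN1 shares 0.602% with ARAF and 7.77% with ENSG00000283743, a processed transcript on the same strand. SNCB, for beta-synuclein, had 19 and 18 counts against 34 and 31 (log2 fold change 0.82, interval 0.13 to 1.51, adjusted p 0.0567), and was called with at least 10 counts required in every library (adjusted p 0.032).

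SYN1 is a textbook target of REST, a repressor that binds the RE1 element and keeps neuronal genes silent in other cells. In these libraries REST had 616 and 590 counts in shNC and 298 and 253 in shMETTL14. Its part in the changes described here was not tested. Promoter windows from 250 bases before to 50 after the start site (RefSeq, GRCh38.p14) were found for 29 of the 37 genes and searched for 6 motifs on both strands. The RE1 core, CAGCACC and GGACAG with 2 free bases between them, occurred in SYN1 and RPH3A, that is in 2 of the 29 genes. It occurred in 0.0586% of all 27305 genes with a window. A gene counted as a match if any of its windows matched, so genes with more windows had more chances. TTCAGCACC, the left end of the element, which overlaps that core, occurred in SYN1 and UNC13A and in 0.469% of all genes. These 3 stretches are shown because both motifs are rare among all genes and the genes differ in their RNA. SYN1 and UNC13A rose and RPH3A was not called. UNC13A held only the shorter left end and not the core. They are written 5′ to 3′ on the strand of the gene, with the fixed letters of the motif in capitals. The SYN1 stretch is chrX:47620066-47620095 on the minus strand, with the core at position -231 from the start site. The RPH3A stretch is chr12:112791545-112791574 on the plus strand, at position -196, and holds the core in reverse. It lies inside the annotated span of the gene, which starts at 112570380, so this start site is an internal one. The UNC13A stretch is chr19:17688329-17688358 on the minus strand, at position 7 after the start, and holds the left end in reverse.
SYN1: ccagcttCAGCACCgcGGACAGtgccttcg
RPH3A: cttagcgCTGTCCgtGGTGCTGaccgccaa
UNC13A: ccgcgcccccGGTGCTGAAccaagatggcc

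SYN1 rose 1.76-fold, UNC13A rose 1.58-fold, and RPH3A was not called at a log2 fold change of -0.15. A match describes these letters and is no evidence of binding. A window without a match does not show that the gene lacks the element, since only exact letters close to the start site were searched. The SYN1 window also held the cyclic AMP response element TGACGTCA, in capitals in the stretch below (chrX:47619998-47620027, minus strand), as did that of SH3GL2, and 2.25% of all genes with a window. The E-box CACGTG occurred in UNC13A (8.77% of all genes), the palindromic NRF1 site in BSN (1.52%), and the GC box GGGCGG in 23 of the 29 genes (48.3%).
SYN1: tgaaggcgcgcTGACGTCActcgccggtcc

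Of RAB3 and its effectors, 5 of 6 genes were called, 2 higher and 3 lower, against 52.5% of all genes, a small group from which nothing is read as a whole. RAB3 proteins are the small GTPases of the vesicle. RAB3A rose from 268 and 271 counts to 356 and 334 (log2 fold change 0.37, SE 0.099, adjusted p 0.00375), with an adjusted p of 0.0533 in DESeq2. RAB3C rose from 840 and 889 to 1088 and 1125 (log2 fold change 0.36, SE 0.0642, adjusted p 5.56e-05). RAB3B (ENSG00000169213, chromosome 1, 51907956 to 51990764 on the minus strand) fell from 400 and 295 to 201 and 184, to 55.9% of the control level (log2 fold change -0.84, SE 0.124, adjusted p 6.09e-06). The shNC libraries differed from each other in RAB3B, and the value was -0.64 without shNC library 1 and -1.01 without shNC library 2, and the gene stayed called without each library in turn. RAB3A was the most abundant of the 3 per length. RAB3B took 11.7% and 8.70% of the summed CPM per kb in shNC and 4.83% and 4.55% in shMETTL14. RAB3A shares 9.08% of its exon length with MPV17L2 on the other strand.

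DOC2A and DOC2B encode C2-domain proteins that bind calcium with high affinity and promote fusion. DOC2B (ENSG00000272636, chromosome 17, 142789 to 181636 on the minus strand, GENCODE 29, GRCh38) had 780 and 797 counts in shNC and 429 and 382 in shMETTL14. In normalised terms it went from 40.4 ± 1.76 to 20.9 ± 1.46 CPM (SD, n = 2 each), which left 51.7% (log2 fold change -0.95, SE 0.0806, adjusted p 2.07e-09). DOC2A had 337 and 344 counts against 237 and 185, which left 62.3% (log2 fold change -0.68, SE 0.115, adjusted p 3.33e-05). Both genes thus fell, with no overlap, and their proportions stayed similar: DOC2B held 69.8% and 69.8% of the summed CPM per kb in shNC and 64.3% and 67.3% in shMETTL14. DOC2A shares 4.44% of its exon length with INO80E. RPH3A, for the RAB3 effector rabphilin, had 184 and 150 counts against 166 and 132 with overlapping groups (interval -0.44 to 0.13).

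Of the 6 tested genes of the active zone and of priming, 4 were higher, against 27.2% of all genes, and PCLO and RIMS2 were not called. Other active zone genes, from the further list described below, went both ways. Of 8 tested, 3 were higher, 2 lower (25.3% of all genes were) and 3 not called, with log2 fold changes from -1.87 to 0.50. UNC13A (ENSG00000130477, chromosome 19, 17601328 to 17688365 on the minus strand, GENCODE 29, GRCh38), whose product Munc13-1 opens syntaxin for SNARE assembly, had 1158 and 1148 counts in shNC and 1884 and 1748 in shMETTL14. Its level rose from 59.0 ± 1.31 to 93.5 ± 3.82 normalised CPM (SD, n = 2 each), 1.58-fold (log2 fold change 0.66, SE 0.052, adjusted p 5.75e-10). UNC13B, for Munc13-2, rose from 1517 and 1377 to 1840 and 1757 counts (log2 fold change 0.32, SE 0.05, adjusted p 1.16e-05). UNC13A made up 55.0% and 57.2% of their summed CPM per kb in shNC and 62.1% and 61.4% in shMETTL14. Neither gene's groups overlapped.

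CADPS encodes CAPS1, which primes dense-core vesicles in particular. It rose from 542 and 488 to 754 and 727 counts, 1.45-fold (log2 fold change 0.53, SE 0.0757, adjusted p 3.77e-06). BSN, for the giant scaffold bassoon, rose from 320 and 263 to 410 and 337 counts (log2 fold change 0.37, SE 0.108, adjusted p 0.00689). The BSN call did not hold with DESeq2 (adjusted p 0.0601), without shNC library 2 (0.27, adjusted p 0.0852) or without shMETTL14 library 1 (0.24, adjusted p 0.118). PCLO, for the related scaffold piccolo, had 887 and 825 counts against 940 and 932 (log2 fold change 0.14, interval 0.02 to 0.26, adjusted p 0.0692). RIMS2, the RIM gene of the set that passed the filter, had 930 and 845 against 975 and 937 (log2 fold change 0.12, interval -0.01 to 0.24, adjusted p 0.125). Summed over the 8 genes, this group went from 269 and 258 to 348 and 335 normalised CPM.

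CPLX1 had the largest rise of the called genes. Complexins are small proteins that bind the assembled SNARE complex, clamp it and speed its fusion on a calcium signal. CPLX1 (ENSG00000168993, chromosome 4, 784957 to 826198 on the minus strand, GENCODE 29, GRCh38) had 319 and 297 counts in shNC and 571 and 606 in shMETTL14, and its exons overlap those of no other annotated gene. It rose from 15.8 ± 0.350 to 30.3 ± 1.64 normalised CPM (SD, n = 2 each), 1.92-fold (log2 fold change 0.94, SE 0.0875, adjusted p 8.47e-09). CPLX2 had 1521 and 1354 counts against 1599 and 1493, with groups that did not overlap on the normalised scale (log2 fold change 0.11, interval 0.01 to 0.22, adjusted p 0.0756); without shNC library 1 it was called at 0.17 (adjusted p 0.0271). At merged exon length the 2 genes traded places: CPLX1 was 38.1% and 39.2% of their summed CPM per kb in shNC and 51.2% and 54.4% in shMETTL14. Which gene leads depends on the length used. The merged exons span 2418 bases for CPLX1 and 7099 for CPLX2, and the longest coding transcripts 2181 and 5023.

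**Figure D3:**
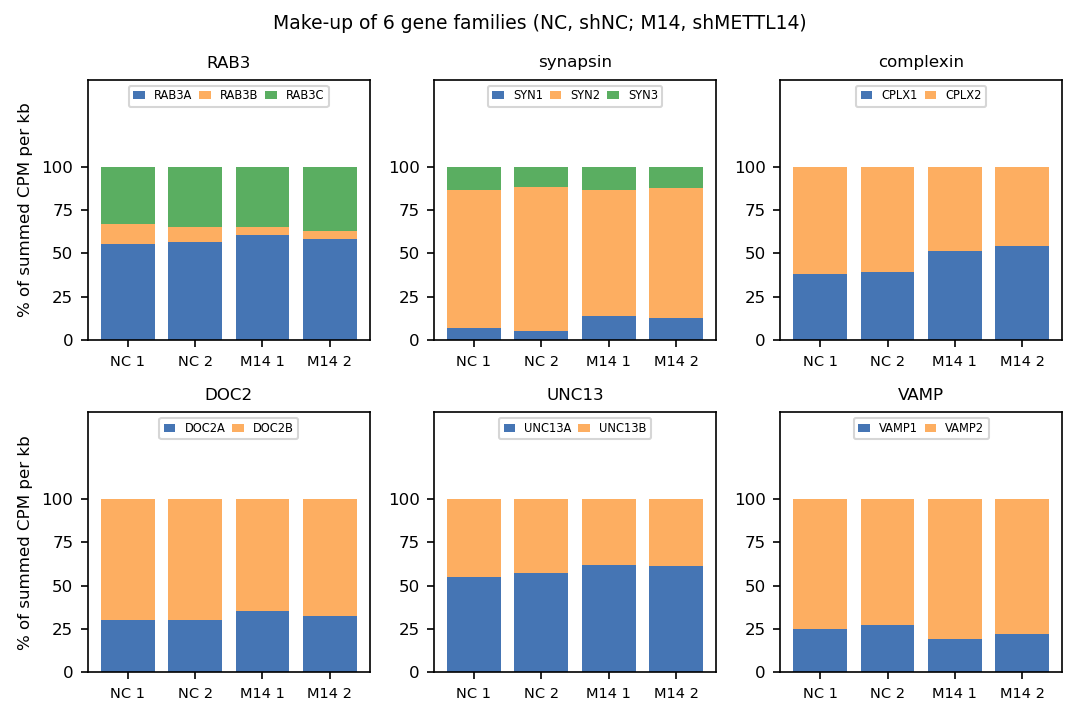
Share of each gene in the summed CPM per kb of its family, for the 4 libraries of 6 families (NC, shNC; M14, shMETTL14). RAB3B shrinks from 11.7% and 8.70% to 4.83% and 4.55%, and SYN1 grows from 6.74% and 5.16% to 14.2% and 12.7%. CPLX1 passes CPLX2 at merged exon length, an order that depends on the length used.

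For membrane recovery, neither of the 2 genes tested was called. DNM1, for the neuronal dynamin that cuts vesicles from the membrane, had 1607 and 1436 counts in shNC and 1432 and 1401 in shMETTL14 (log2 fold change -0.09, interval -0.20 to 0.01, adjusted p 0.141). It was called lower after upper quartile scaling (-0.16, adjusted p 0.0131) and when only library size was used (-0.14, adjusted p 0.0313). SYNJ1, for the lipid phosphatase synaptojanin 1, had 379 and 369 against 363 and 374 with overlapping groups (log2 fold change -0.01, interval -0.19 to 0.17). The RNA of this group was mostly DNM1, and its sum was 99.7 and 94.6 normalised CPM in shNC against 91.8 and 92.2. Of 15 other endocytosis genes tested, such as those for clathrin and its AP-2 adaptor, 7 were higher (27.2% of all genes were), 2 lower (25.3% of all genes were) and 6 not called, with log2 fold changes from -0.69 to 0.58.

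Summed over all 37 genes, the machinery took 1029 and 995 normalised CPM in shNC and 1094 and 1077 in shMETTL14. Within that sum, SYN2, DOC2A, DOC2B and RAB3B lost RNA while UNC13A, UNC13B, CPLX1 and SYP gained it. Genes for vesicle membrane proteins went from 188 and 185 to 202 and 213 normalised CPM, and synapsins with SNCB from 84.9 and 77.5 to 63.2 and 63.0. The genes for RAB3 proteins, rabphilin and DOC2 proteins went from 141 and 143 to 127 and 122 normalised CPM. In that last group DOC2A, DOC2B and RAB3B fell, while RAB3A and RAB3C rose.

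Some of these neuronal proteins have paralogs that are more widely expressed, and 18 of 19 such paralogs listed here could be tested (VAMP8, at 6 to 11 counts, could not). None was listed for the synapsins, SV2 proteins, complexins or DOC2 proteins. Of the 18, 7 were higher and 3 lower, 10 called in all beside the background of 52.5%. Beside STX1A, STX2 rose from 887 and 842 to 1552 and 1397 counts (log2 fold change 0.78, SE 0.0591, adjusted p 3.53e-10), and STX3 was not called at 0.12. STX4 was lower at -0.30 (adjusted p 0.0188), but not in DESeq2 (0.126), without shNC library 1 (-0.22, 0.163) or without shMETTL14 library 1 (-0.26, 0.0997). Beside the uncalled VAMP2, VAMP3 (cellubrevin) rose from 1534 and 1516 to 2204 and 2064 counts (log2 fold change 0.49, SE 0.0481, adjusted p 1.79e-08), and VAMP7 was not called at 0.02. Beside SNAP25, which was called lower, SNAP23 at 0.09 and SNAP29 at 0.11 were not called. SNAP47 was higher at 0.23 (adjusted p 0.015), but not in DESeq2 (0.103), after upper quartile scaling (0.16, 0.0786), without shNC library 1 (0.23, 0.05) or without shMETTL14 library 2 (0.17, 0.162). It shares 35.3% of its exon length with JMJD4 on the other strand. NAPA rose (0.29, adjusted p 0.00572, 0.0637 in DESeq2) where NAPB fell, and NAPG was not called at 0.17. These are separate tests, and the differences between partners were not tested.

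In other pairs, SYNGR2 was lower like SYNGR1 (-0.28, adjusted p 0.0116), but not in DESeq2 (0.0725), without shNC library 2 (-0.15, 0.237) or without shMETTL14 library 2 (0.0514). RAB3D was higher like RAB3A (0.35, adjusted p 7.04e-04). SYPL1, the paralog of SYP, was not called at -0.10, and DNM2, at -0.05, was not called, like DNM1. SYNJ2 was higher at 0.32 (adjusted p 0.00381), but not without shMETTL14 library 1 (0.20, 0.129). Where the neuronal endocytosis gene was all but silent, the common one was abundant: SH3GL1 had between 2127 and 2635 counts and was higher at 0.23 (adjusted p 1.75e-04), and BIN1 had between 1375 and 1694 and was lower at -0.18 (adjusted p 0.00656), but not in DESeq2 (0.0566), without shNC library 1 (-0.13, 0.0824) or without shMETTL14 library 2 (-0.15, 0.0784). UNC13D had 22 and 18 counts in shNC and 8 and 11 in shMETTL14 and was not called (log2 fold change -1.05, interval -1.95 to -0.16, adjusted p 0.0572).

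**Figure D4:**
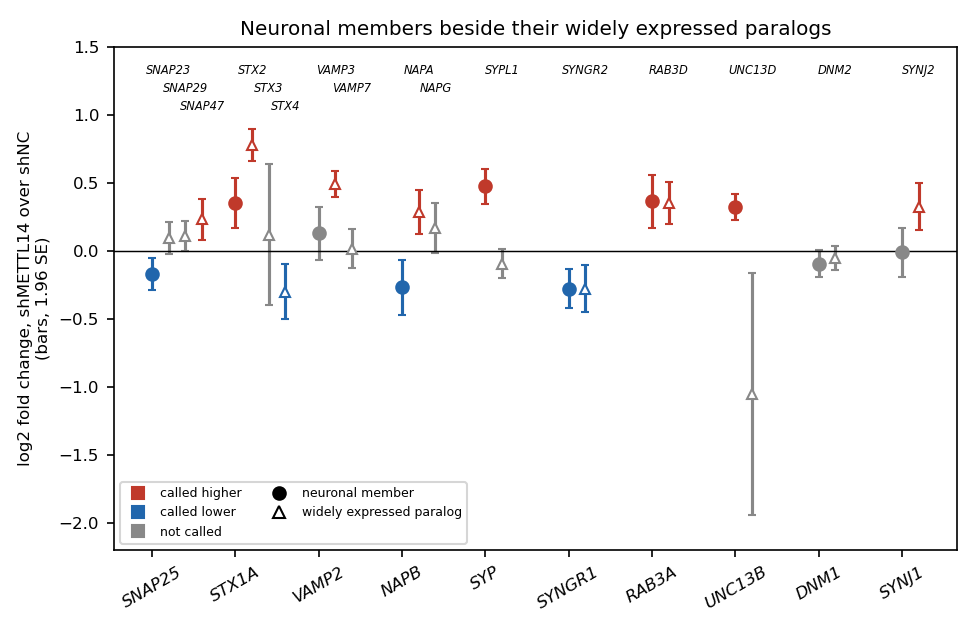
Log2 fold change of 10 neuronal genes (filled circles) and of their tested, widely expressed paralogs (open triangles, named at the top), with bars of 1.96 standard errors on each side and colour for the call. STX2 and VAMP3 lie above their neuronal partners, and NAPA lies above 0 where NAPB lies below it.

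Of 54 further genes of release and recycling, 40 could be tested, and 17 were higher (42.5%, against 27.2% of all genes tested) and 9 lower (22.5%, against 25.3%). These counts varied with the processing. Upper quartile scaling gave 12 higher and 10 lower, and library size alone 14 and 9. DESeq2 gave 15 higher and 7 lower, and the replicate block 19 and 9. At 2-fold, 2 were higher and 2 lower, where 2.8% and 5.99% of all genes were. RAB3IP, for the exchange factor Rabin8, rose from 26 and 33 counts to 117 and 145 (log2 fold change 2.16, SE 0.225, adjusted p 5.11e-08). RAB27B, for a GTPase of granule docking, rose from 522 and 473 to 998 and 982 (log2 fold change 1.00, SE 0.0711, adjusted p 1.23e-10). TSPOAP1, for the RIM-binding protein RIM-BP1, fell from 143 and 148 to 45 and 34 (log2 fold change -1.87, SE 0.197, adjusted p 5.91e-08). SYNGR4, a synaptogyrin, fell from 28 and 47 to 9 and 12 (log2 fold change -1.82, SE 0.416, adjusted p 8.73e-04). The median over the 40 was 0.12. The vesicular transporter genes for glutamate and for GABA, which were named after their values were seen, gave almost no RNA: SLC17A6, SLC17A7, SLC17A8 and SLC32A1 had at most 6 counts in a library. SLC18A3, which loads acetylcholine, had between 48 and 83 counts and was not called.

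The sequence GGACT, a frequent form of the m6A consensus, was counted in the longest coding transcript of each tested gene in GENCODE 29. Every one of the 32 vesicle genes held it at least once, and so did 91.1% of the 12832 coding genes with a transcript. The median was 0.939 copies per kb in the vesicle genes and 0.939 in all of those genes. It was 0.731 in the 11 higher vesicle genes, 0.966 in the 7 lower ones and 1.01 in the 14 that were not called, with ranges that overlapped widely. CPLX1 held 1 copy and DOC2B held 5. No m6A was measured in these libraries.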

How the data were processed

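The authors deposited raw counts of reads for each Ensembl gene, not normalised, in a single table with 1 column for each of the 4 libraries (150-bp paired-end reads). The submitters' processing notes name HISAT2 2.1.0, StringTie 1.3.6, HTSeq 0.13.5, edgeR and the builds GRCh38 and hg38. The annotation and strand setting are not given in the sources used here. Reads from stretches where genes overlap may thus have been given to the wrong gene or counted for neither. Lines naming no gene (19.1% to 19.9% of counts) were left out. Groups came from the sample titles. Counts were tested on the whole table with edgeR 4.0.16 (quasi-likelihood F-test, TMM, filterByExpr with a minimum count of 10 and total of 15, group only), adjusted by Benjamini-Hochberg over all 16309 genes tested, after a test on simulated counts. Standard errors derive from the F statistic. With 2 libraries against 2, no exact two-sided permutation p is under 0.333, so calls rest on variance shared across genes. Alternatives were 3 scalings, 2 filters, DESeq2 1.42.0, a replicate block and leaving out each library. The floor covers counting error only. Genes and lists were chosen with earlier results of these data known. All 37 genes, METTL14 and the paralogs were named, and of further release genes those called at 2-fold or more. REST and the transporters were added after their values were seen. Exon lengths and overlaps came from GENCODE 29, and promoters from RefSeq.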

Additional observations from a re-analysis of the deposited data

How the results depend on the processing

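Over 11 alternatives, 13 of the 18 called vesicle genes kept their call and direction, 8 higher and 5 lower, and no called gene changed direction. The other 5 (SNAP25, STX1A, NAPB, RAB3A, BSN) lost it somewhere, and 6 uncalled genes were called somewhere, with the values given beside each gene. METTL14 ranged from -1.33 to -1.21 and stayed called. Leaving out 1 library each, where the lone library is assumed to vary like the other group, gave between 9 and 12 higher and between 5 and 8 lower vesicle genes. At 2-fold the counts of 0 became between 0 and 1 in each direction (SYN1 without shNC library 1, SYNPR without shNC library 2, CPLX1 without shMETTL14 library 1, RAB3B without shNC library 2 and DOC2B without shMETTL14 library 1), and upper quartile scaling gave 1 lower gene, DOC2B. The 3 lower paralogs became 6 after upper quartile scaling, 5 when only library size was used and 0 in DESeq2 (2 at an unadjusted p under 0.05, against 4 with edgeR), and between 1 and 2 with 1 library left out, lowest without shNC library 1 and without shMETTL14 library 2; the cause was not tested. Upper quartile scaling shifted the median log2 fold change of 11625 genes by -0.0676, which moved higher calls from 51.8% to 41.7% of all calls; vesicle genes were then 11 higher and 10 lower. Replicate numbers shared only a number (correlation of deviations -0.0018). With the replicate block, 11 vesicle genes were higher and 7 lower, as without it. SNCB, SYNGR3 and SYNPR, with few counts, are limited by depth.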
